A study of Mus musculus with 10 samples.

Results

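Ribosome-bound RNA captured from cells with an active dopamine D1 receptor gene was set against total RNA of the striatum, gene by gene. All 10 libraries of the study entered: 9 pull-downs and 1 input. The mice carried the Drd1-TRAP CP73 transgene, which places an EGFP-tagged ribosomal protein L10a under the regulatory sequence of Drd1, on a background of FVB/N-Swiss Webster x C57BL/6 brought to at least 9 generations of C57BL/6. The pull-downs came from 3 groups of 3 (mice self-administering saline, mice self-administering cocaine, and a yoked control), and libraries are called by group and replicate number (saline 1). The 10th library, the input, was total RNA of whole striatum of the same transgenic genotype, and the labels name no self-administration group for it. The study, of short-access intravenous cocaine self-administration, used adult mice; their exact age and sex are not given in the labels, nor is what the yoked mice received, or whether replicates were separate or pooled animals. The tag was made in every cell type in which the transgene is active, and tagged ribosomes were taken from a homogenate of the whole striatum with antibodies against EGFP.

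The striatum is built mainly of medium spiny neurons, GABAergic projection cells that fall into a direct-pathway class carrying D1 receptors, with the peptides substance P and dynorphin, and an indirect-pathway class carrying D2 dopamine receptors and an adenosine receptor, with enkephalin. Astrocytes, oligodendrocytes, microglia, vessels and a small number of GABAergic and cholinergic interneurons make up the rest, and cortical and midbrain axons end there. Translating ribosome affinity purification (TRAP) retains RNA attached to tagged ribosomes, so that RNA of untagged cells and RNA held in the nucleus should be lost relative to the input.

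Each value below is either a level, in counts per 1000000 gene counts (CPM), or a ratio, the pull-down CPM over the input CPM with 0.5 CPM added to both. Ratios were taken in each of the 9 pull-downs and averaged as log2, and ± gives the SD over them. A gene was counted as enriched or depleted at 2-fold when the ratio passed 2-fold in the same direction in each of the 9 pull-downs. With 1 input its own spread is unknown, and no test between pull-down and input was made. In these bulk samples, fewer cells of a type and less RNA per cell cannot be told apart.

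In units of 1e+06 gene counts, the pull-downs held 12.5 to 45.2 and the input 40.5. Rank correlation of CPM over genes with the input ran from 0.878 in cocaine 3 to 0.924 in yoked 2, below that of any pair of pull-downs, which ran from 0.965 to 0.995. Reads that the counting assigned to no feature made up 27.6% of the input and 12.3% to 16.1% of the pull-downs. These are shares of reads assigned to a gene, to no feature or ambiguously. Counting mode, annotation and strand setting are not given, so whether such reads lie inside or between genes cannot be told. The groups were sequenced on lane 3 (saline), lane 1 (cocaine) and lane 2 (yoked) and the input on lane 5. Lane therefore cannot be told apart from group or from kind of library. Several libraries stood apart. Saline 1 held the pituitary hormone RNA Gh at 340 CPM where the other pull-downs held 0 to 3.28. Saline 3 held the choroid plexus RNA Ttr at 147 CPM, saline 2 held cholinergic RNAs near the level of the input, and yoked 2 held the highest levels of glial RNA. Yoked 3 had rank correlations of 0.965 to 0.981 with the other pull-downs, where pairs of pull-downs without it ran from 0.980 to 0.995. The input itself contained Gh at 2356 CPM, and the ratios of pituitary genes rest on that.

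The D1 receptor RNA itself, Drd1 (chr13:54051183-54055658, GRCm38), measured 706, 608 and 755 CPM in saline 1 to 3, 708, 592 and 682 CPM in cocaine 1 to 3, and 645, 594 and 930 CPM in yoked 1 to 3, against 331 CPM in the input. All 9 pull-downs lay above the input, with a ratio of 2.07 that ran from 1.79 to 2.81, and yoked 3 was the highest. Tac1, the substance P precursor, measured 376, 261 and 416 CPM in the saline, 319, 279 and 415 CPM in the cocaine and 302, 249 and 555 CPM in the yoked pull-downs, and 73.8 CPM in the input. Its ratio of 4.60 (3.36 to 7.48) was the largest among the D1 markers. Pdyn, the dynorphin precursor, measured 131, 92.0 and 159 CPM in saline, 123, 116 and 136 CPM in cocaine and 118, 102 and 147 CPM in yoked pull-downs against 46.7 CPM in the input, a ratio of 2.63. For all 3 genes yoked 3 and saline 3 were among the 3 highest libraries and no pull-down overlapped the input.

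RNA of the other medium spiny class lay below the input. Penk, the enkephalin precursor, measured 172, 209 and 105 CPM in saline, 200, 181 and 158 CPM in cocaine and 204, 323 and 172 CPM in yoked pull-downs, and 789 CPM in the input, which is 4.27-fold lower (log2 ratio -2.10 ± 0.42). Adora2a, that adenosine receptor, measured 32.3, 56.5 and 13.0 CPM in saline, 27.6, 38.5 and 30.3 CPM in cocaine and 32.5, 75.9 and 12.7 CPM in yoked pull-downs against 272 CPM, a ratio of 0.115. The 2 genes were farthest from the input in saline 3 and yoked 3 (Adora2a) or saline 3 (Penk), and nearest in yoked 2.

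Glial RNA lay farther below the input, and the libraries differed more. Slc1a2, the main glutamate transporter of astrocytes, measured 163, 286 and 113 CPM in saline, 209, 156 and 88.9 CPM in cocaine and 211, 538 and 108 CPM in yoked pull-downs, and 1770 CPM in the input (ratio 0.101). Mobp, a myelin protein of oligodendrocytes, measured 20.1, 31.7 and 8.21 CPM in saline, 31.3, 28.8 and 14.2 CPM in cocaine and 31.1, 69.1 and 10.2 CPM in yoked pull-downs, and 350 CPM in the input (ratio 0.0659). In both genes yoked 2 was the highest pull-down, and it still lay at 0.304 and 0.199 of the input. Rpl10a, the ribosomal protein that is tagged, stood at 6.58 ± 1.26 CPM in the pull-downs and 4.24 CPM in the input, and whether reads of the transgene are among these counts was not tested.

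**Figure D1:**
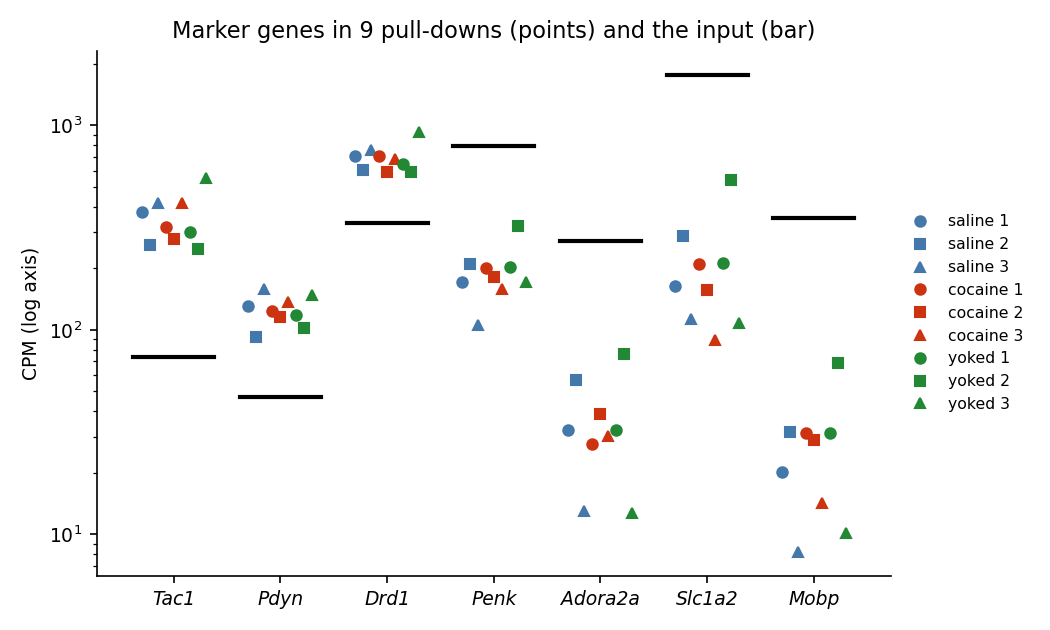
Level (CPM, log axis) of the 7 marker genes in each of the 9 pull-downs, by group, and in the input. Drd1, Tac1 and Pdyn lie above the input in all pull-downs, and Adora2a, Penk, Slc1a2 and Mobp lie below it, with yoked 2 the highest pull-down for each of the 4.

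Marker lists widened this view. The 9 D1 markers were all above the input in each pull-down, where 29.7% of all 13612 genes past the level minimum of 1 CPM were. Of the 9, 3 were enriched at 2-fold, where 3.5% of all genes were. Drd1 was not among them, with a lowest ratio of 1.79. The median ratio of the 9 markers was 2.27, and 0.970 over all genes. Besides Drd1, Tac1 and Pdyn the list held Slc35d3 (2.87), the transcription factor Isl1 (2.43), Sfxn1, a mitochondrial serine carrier (2.27), Eya1 (2.20), the muscarinic M4 receptor Chrm4 (2.04) and the transcription factor Ebf1 (1.91). Across libraries the list median ran from 2.0 in yoked 2 to 2.83 in yoked 3.

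Of the 8 D2 markers, 7 were below the input in each pull-down, where 35.6% of all genes were, and the median ratio was 0.220. Drd2, the D2 receptor, had the lowest ratio at 0.0882, with 319 CPM in the input and 11.1 to 63.6 CPM in the pull-downs. Gpr52 (0.114), Gpr6 (0.207), both orphan receptors, Sp9, a transcription factor (0.279), and the purinergic receptor P2ry1 (0.346) followed. The exception was Gucy1a3, a subunit of soluble guanylyl cyclase, with 247 to 363 CPM in the pull-downs and 344 CPM in the input (ratio 0.853, above the input only in yoked 3). The D2 list median was lowest in yoked 3 (0.139) and highest in yoked 2 (0.422), the reverse of the order for the D1 list.

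Genes shared by both classes of medium spiny neuron had a median ratio of 1.10, with 3 of 11 above the input in all pull-downs and 2 below. Over all genes 29.7% were above and 35.6% below in all pull-downs, and at 2-fold 3.5% and 11%. The same shares stand beside the counts of the lists that follow. Ppp1r1b, which encodes the phosphatase inhibitor DARPP-32, was at 1.92, the retinoic acid receptor Rarb at 1.69 and Arpp21 at 1.34. The phosphodiesterase Pde10a (1.17), the adenylyl cyclase Adcy5 (1.14), the olfactory-type G protein Gnal (1.10) and the transcription factor Bcl11b (1.01) straddled the input. Rgs9, a regulator of G protein signalling, was at 0.505 and the transcription factor Meis2 at 0.805, both below in all 9. In the wider list of dopamine and cAMP signalling, 13 of 20 genes were above the input in every pull-down and 1, Rgs9, below. Its highest ratios were those of the kinase Dclk3 (2.17), the Rap exchange factor Rasgrp2 (1.93), Ppp1r1b, the phosphodiesterase Pde1b and the phosphatase Ptpn5 (1.85 each for the last pair), while the G protein subunit Gnb1 was at 1.07.

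Peptide precursors ran along the whole range, with 9 of the 15 listed past the level minimum and a median of 1.14. Above the input in every pull-down were Tac1, Pdyn and Tac2, the neurokinin B precursor (3.80, although the input held only 0.197 CPM of it). Below it in every pull-down were Penk and 2 precursors made by interneurons, those of neuropeptide Y (Npy, 0.255) and somatostatin (Sst, 0.187). Cck, cholecystokinin, straddled the input with ratios of 0.586 to 3.67. The 4 striosome markers had a median of 0.907, a direction that turned under TMM scaling, and among them only Lypd1 (1.81) was above in all 9, and Oprm1, the mu opioid receptor, averaged 0.720 (0.484 to 1.02).

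Of the markers of other cells, astrocyte genes had a median ratio of 0.187, with 11 of 12 below the input in each pull-down, and oligodendrocyte genes 0.120, with 11 of 11. Among myelin genes Mal (0.0944) was near Mobp, while Cnp reached 0.339. Oligodendrocyte precursor genes stood at 0.124 (6 of 6 below), microglial genes at 0.179 (10 of 10), endothelial and mural genes at 0.258 (6 of 6 of the 10 listed that passed the level minimum) and ependymal and choroid plexus genes at 0.353. The astrocyte median ran from 0.0940 in saline 3 to 0.543 in yoked 2, and the oligodendrocyte median from 0.0499 to 0.296 in the same libraries. The summed level of the 12 astrocyte genes was 237 to 1229 CPM in the pull-downs and 2772 CPM in the input, that of the oligodendrocyte genes 217 to 1089 CPM and 3025 CPM. No gene of either list was at 0 in all pull-downs.

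Markers of the interneurons of the striatum were mostly low. GABAergic interneuron genes had a median of 0.187, with Sst, Npy, Pvalb (parvalbumin, 0.155) and the transcription factor Lhx6 (0.122) below the input in each of the 9. Nos1, the neuronal nitric oxide synthase, was below in 8 and at 18.3 CPM in yoked 2 against 15.2 CPM in the input (mean ratio 0.436). Cholinergic genes had a median of 0.219, yet in saline 2 alone the list stood at 1.43. Slc5a7, the choline transporter, measured 28.7 CPM there, 0.839 to 11.3 CPM in the other 8 pull-downs and 31.0 CPM in the input. Lhx8, a transcription factor of these cells, measured 15.8 CPM in saline 2, 0.309 to 2.98 CPM in the others and 14.6 CPM in the input.

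The cortical glutamatergic list was the one list of other cells with a median above the input, at 1.75, but its members and libraries differed widely. Neurod2 (2.80), Neurod6 (2.20) and Tbr1 (2.25), transcription factors of cortical projection neurons, and Slc17a7, the vesicular glutamate transporter of the cortex (1.64), were above the input in 7 or 8 of 9 pull-downs. Rorb, a receptor of layer 4 neurons that other brain regions also express, was below in all 9 at 2.78 to 15.3 CPM against 123 CPM (ratio 0.0572), and Cux2 was at 0.460. By library the list median was 0.643 in saline 1, 0.693 in yoked 2 and 1.84 to 3.18 in the other 7. Its summed level over all 10 listed genes was 38.3 to 130 CPM in the pull-downs and 173 CPM in the input, where Rorb contributed most. Subcortical glutamatergic genes (median 0.105) were low throughout, with Slc17a6, the transporter of thalamic neurons, at 0.144 and Tcf7l2 at 0.0766.

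**Figure D2:**
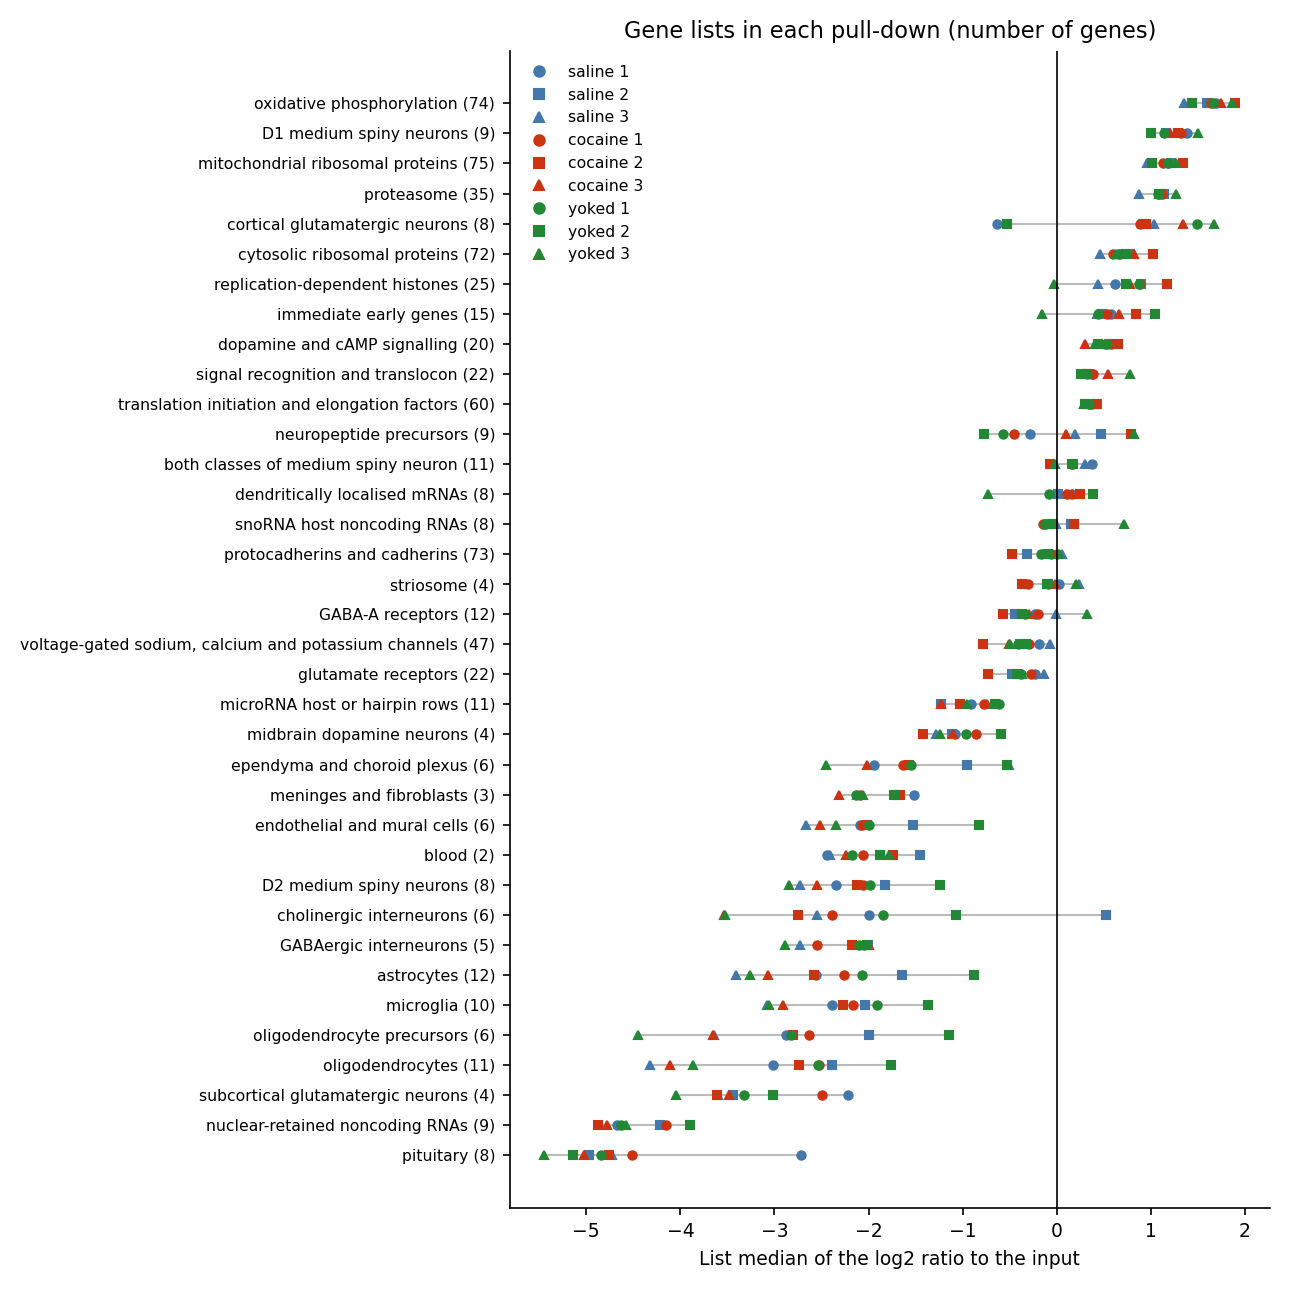
Median log2 ratio to the input of each gene list, with 1 point for each pull-down and a grey line over their range; the number of genes stands beside each list. The D1 and the mitochondrial lists lie above 0 in every pull-down, the D2, glial and nuclear RNA lists below 0, and the cholinergic and cortical lists on both sides.

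Across all 13612 genes the ratios had a median of 0.970, with 5% of the genes below 0.194 and 5% above 2.28. The spread was lopsided: 477 genes (3.5%) were enriched at 2-fold and 1502 (11%) depleted, and at 4-fold 17 (0.125%) were enriched and 407 (2.99%) depleted. The level minimum averages pull-down and input, so a gene can pass it through the input alone. Genes depleted at 2-fold had medians of 1.0 CPM in the pull-downs and 7.59 CPM in the input. With a minimum of 5 CPM the 2-fold split was 451 enriched against 700 depleted. With TMM scaling, which is computed from the bulk of genes and moved the median of all genes by 0.19 on the log2 scale, the 2-fold split became 801 enriched against 1239 depleted, or 39.3% enriched in place of 24.1%. A further 4719 genes (34.7%) had pull-downs on both sides of the input. The median SD of the log2 ratio over the 9 pull-downs was 0.24, and it was 0.22 among the enriched and 0.37 among the depleted genes.

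**Figure D3:**
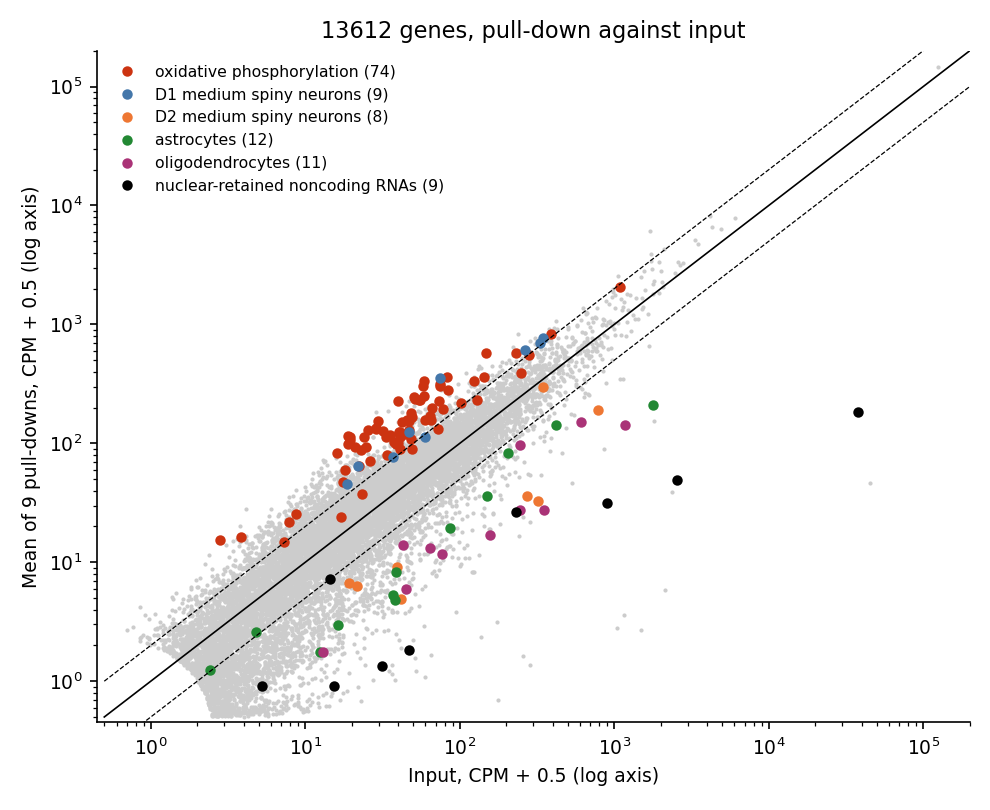
Mean level of the 9 pull-downs against the level in the input (CPM + 0.5, log axes) for the 13612 genes past the level minimum, in grey, with 6 lists in colour. The solid line marks equal levels and the dashed lines 2-fold; genes below the lines reach farther from them than genes above, and the nuclear RNAs farthest among the lists shown.

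The genes of highest ratio were not markers of D1 neurons. The rule for naming genes took those enriched in all 9 pull-downs at a mean level of at least 10 CPM. It left out sex-linked, predicted, clone and small RNA rows, among them 2010107E04Rik (6.27) and 2410015M20Rik (5.55). By this rule the 12 highest were Snrpd2, Ndufb2, Cox5b, Atp5e, Ndufa4, Ndufa7, Timm8b, Psmg4, Uqcr10, Timm13, Atp5k and Ndufb7, with ratios of 6.72 down to 5.14. Snrpd2 (chr7:19149445-19152734), a core protein of the spliceosome, measured 26.5, 26.4 and 21.2 CPM in saline, 26.6, 38.1 and 31.7 CPM in cocaine and 27.9, 24.6 and 25.2 CPM in yoked pull-downs against 3.63 CPM in the input (exact Poisson 95% interval 3.07 to 4.26, counting error only). Ndufb2 (chr6:39592565-39599843), a subunit of respiratory complex I, measured 116, 95.1 and 84.9 CPM in saline, 111, 150 and 129 CPM in cocaine and 115, 99.9 and 130 CPM in yoked pull-downs against 18.5 CPM. Cocaine 2 was the highest library for both genes and saline 3 the lowest.

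Most of the other named genes also serve mitochondria. Cox5b, a subunit of cytochrome c oxidase, stood at 112 ± 14.8 CPM against 19.1 CPM in the input, and Atp5e, the epsilon subunit of ATP synthase, at 226 ± 30.9 CPM against 39.1 CPM. Ndufa4 measured 519 CPM in yoked 3 and 248 to 351 CPM in the other 8, and 57.9 CPM in the input. Timm8b (5.37) and Timm13 (5.17) are small chaperones of the mitochondrial intermembrane space, Uqcr10 (5.23) a subunit of complex III, and Psmg4 (5.30) a chaperone of proteasome assembly.

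The list of nuclear-encoded oxidative phosphorylation genes was above the input as a whole. All 74 genes past the level minimum were above it in each pull-down, 56 of them at 2-fold, and the median ratio was 3.16, from 2.56 in saline 3 to 3.72 in cocaine 2. Complex IV had the highest median (3.91, 10 genes), followed by complex I (3.29, 36), complex III (2.83, 9), ATP synthase (2.69, 15) and complex II (2.39, 4). The lowest members were Atp5s (1.38) and Sdha, the flavoprotein of complex II (1.55). Atp5b, the catalytic beta subunit of ATP synthase, stood at 1.89.

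Of the mitochondrial ribosomal protein genes past the level minimum, 75 of 75 were above the input in every pull-down and 30 at 2-fold, with a median of 2.20, from Mrpl35 (1.15) to Mrps21 (4.85). Proteasome genes followed with 34 of 35 above, 13 at 2-fold, and a median of 2.15. Their highest member was the catalytic subunit Psmb6 (90.9 to 141 CPM against 31.9 CPM in the input, ratio 3.51), and the only one not above in all 9 was Psmb10 (1.0), a subunit of the immunoproteasome. Together with the cytosolic ribosomal proteins these lists held 107 of the 477 enriched genes (22.4%) and none of the 1502 depleted ones, beside 1.88% of all genes past the level minimum.

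Cytosolic ribosomal protein genes were less uniform. Of 72 past the level minimum among the 86 listed, 57 were above the input in each pull-down and 1 below, with a median of 1.63. Rpl41, the smallest ribosomal protein, was at 4.04, Rpl34 at 3.43 and Rplp2 at 2.62, whereas Rpl4 (0.857), Rpl31 (0.839) and Rps6 (0.811) lay under 1. Many of these genes have near-identical pseudogene copies that can take up their reads, so single values are uncertain. Genes listed as translation factors had a median of 1.27 (33 of 60 above, 7 below), from Eif2ak2 at 0.166 to Eef1e1 at 2.60. These 2 extremes carry the symbols of factors but are not themselves initiation or elongation factors. Between them, Eif3i was at 2.42, Eif1b at 2.54, Eef2 at 0.783 and Eef1a1 at 0.772.

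Genes of protein entry into the endoplasmic reticulum divided by member. Of the signal recognition particle, Srp14 was at 4.04, Srp19 at 3.41 and Srp9 at 1.96, and of the translocon Sec61b was at 4.25 and Sec61g at 2.44. In contrast, the pore subunit Sec61a1 (0.828), Ssr1 (0.628) and the membrane chaperone partner Sec63 (0.435) were below the input in all 9. The list median was 1.27, with 12 of 22 above and 4 below.

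To show which sequences lie before the start of genes at both ends of the range, the 120 bases before the RefSeq start (GRCm38.p6) are given 5′ to 3′ on the gene's strand, in lower case with matches to searched motifs in capitals. Drd1, with its 2 starts, is shown for the regulatory gene used to drive the tag, and Tac1 as the D1 marker of highest ratio. Atp5e, Timm8b, Ndufb7 and Atp5k are 4 of the 12 named genes of highest ratio, and Mobp is a depleted gene. These genes are a selection, and the windows of the rest of the 12 are not shown. Matches in the printed windows therefore describe neither the 12 nor the enriched or depleted genes as sets, for which shares are given below.
Drd1, start 1, chr13:54055659-54055778, minus strand: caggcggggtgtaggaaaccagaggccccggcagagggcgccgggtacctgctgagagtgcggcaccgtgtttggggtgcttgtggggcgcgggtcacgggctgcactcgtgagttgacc
Drd1, start 2, chr13:54054781-54054900, minus strand: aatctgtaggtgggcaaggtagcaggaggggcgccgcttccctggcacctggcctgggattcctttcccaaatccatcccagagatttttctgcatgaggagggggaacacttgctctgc
Tac1, chr6:7554941-7555060, plus strand: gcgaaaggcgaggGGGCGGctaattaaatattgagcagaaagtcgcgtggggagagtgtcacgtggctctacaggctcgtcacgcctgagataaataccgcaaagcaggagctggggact
Atp5e, chr2:174464102-174464221, minus strand: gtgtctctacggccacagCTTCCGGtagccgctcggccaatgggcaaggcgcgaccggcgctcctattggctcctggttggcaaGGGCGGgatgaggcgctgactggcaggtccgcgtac
Timm8b, chr9:50603781-50603900, plus strand: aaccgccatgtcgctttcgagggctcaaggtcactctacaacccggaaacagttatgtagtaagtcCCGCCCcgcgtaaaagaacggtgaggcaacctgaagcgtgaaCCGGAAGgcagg
Ndufb7, chr8:83566638-83566757, plus strand: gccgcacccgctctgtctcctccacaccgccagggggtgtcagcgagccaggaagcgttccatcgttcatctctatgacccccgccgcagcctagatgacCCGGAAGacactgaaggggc
Atp5k, chr5:108434400-108434519, minus strand: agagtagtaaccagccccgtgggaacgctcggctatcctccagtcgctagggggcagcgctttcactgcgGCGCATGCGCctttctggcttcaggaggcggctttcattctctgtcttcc
Mobp, chr9:120149622-120149741, plus strand: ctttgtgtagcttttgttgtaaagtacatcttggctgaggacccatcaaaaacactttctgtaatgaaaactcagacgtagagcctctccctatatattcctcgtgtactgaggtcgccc

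Of the 6 motifs searched, none was found in the windows shown for Drd1 and Mobp, and no printed matches overlap. For counts, motifs were searched on both strands from 250 bases before to 50 after the start of the 7735 of 13612 genes with a single RefSeq start. The ETS motif CCGGAAG, printed in the windows of Atp5e, Timm8b and Ndufb7, was found for 18.6% of all these genes, 26.5% of the 321 enriched and 8.75% of the 686 depleted ones. The YY1 motif AAGATGGC was found for 5.2%, 8.72% and 1.60%, and the palindromic NRF1 motif, printed before Atp5k, for 2.18%, 3.74% and 2.48%. The SP1 motif GGGCGG, printed before Tac1, Atp5e and Timm8b, was found for 67.1%, 61.1% and 60.1%, the cAMP response element for 3.58%, 4.05% and 2.33%, and the TATA box TATAAA for 6.37%, 6.54% and 8.16%. Among the 54 oxidative phosphorylation genes with a single start, 25.9% held the ETS, 14.8% the YY1, 7.41% the NRF1 and 37.0% the SP1 motif. A match is a run of letters and not a measured binding site, and the differences in these shares were not tested.

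At the other end, most of the named genes of lowest ratio were nuclear noncoding RNAs and pituitary hormones. Rows that the rule leaves out by symbol made up 240 of the 407 genes depleted at 4-fold (59.0%), beside 11.2% of all genes past the level minimum. By the same rule the 12 lowest were Gh, Malat1, Prl, Cga, Meg3, Pomc, Snhg11, Kcnq1ot1, Miat, Rreb1, Rorb and Ftx. Malat1 (chr19:5795690-5802672), a noncoding RNA of nuclear speckles, took 38014 CPM of the input, and 189, 194 and 166 CPM in saline, 172, 119 and 114 CPM in cocaine and 124, 387 and 177 CPM in yoked pull-downs, which is 222-fold lower. Meg3, an imprinted nuclear noncoding RNA, measured 25.4 to 93.5 CPM in the pull-downs and 2550 CPM in the input, 55.0-fold lower. Yoked 2 was the highest pull-down for both, at 0.0102 and 0.0369 of the input.

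All 9 genes of the nuclear noncoding list were below the input in each pull-down, with a median ratio of 0.0411. Neat1, the scaffold of paraspeckles, was at 0.0586, Miat at 0.0411, Kcnq1ot1, the antisense silencer of its imprinted cluster, at 0.0369 and Snhg11 at 0.0346, and the mildest was Pvt1 at 0.487. Kcnq1ot1 lies over a gene on the other strand and the strand setting of the counting is not given in the sources used here, so its reads and those of Kcnq1 cannot be told apart. Noncoding hosts of small nucleolar RNAs, which are spliced and reach the cytoplasm, had a median of 1.01 and differed. Snhg1 (1.96), Snhg12 (1.54) and Snhg6 (1.51) were above the input in all 9, Gas5 at 0.886 straddled it, and Snhg7 (0.281) and Snhg4 (0.429) were below. Snhg11, by name also such a host, was put in the nuclear list and not in this one, so the contrast between the lists rests partly on that choice.

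Grouped by RefSeq class, with shares of all gene counts and the ribosomal RNA gene Rn45s put in no class, long noncoding RNAs took 4.74% of the counts in the input and 0.435% ± 0.0311 in the pull-downs (SD, n = 9). Rows with no place in RefSeq, mostly clone names, took 6.35% and 0.835% ± 0.0334. Protein-coding genes took 75.9% and 83.5% ± 3.09. Rn45s itself took 12.5% of the input and from 10.5% (saline 1) to 20.5% (cocaine 3) of the pull-downs, and it is part of the total behind every CPM. With CPM scaled without Rn45s, 539 genes were enriched and 1477 depleted at 2-fold. Of 443 long noncoding genes past the level minimum, 4 (0.903%) were enriched at 2-fold and 105 (23.7%) depleted, and of 728 unplaced rows 3 (0.412%) and 331 (45.5%). The shares were 3.5% and 11% over all genes past the level minimum, and 3.79% and 8.55% over the protein-coding ones.

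**Figure D4:**
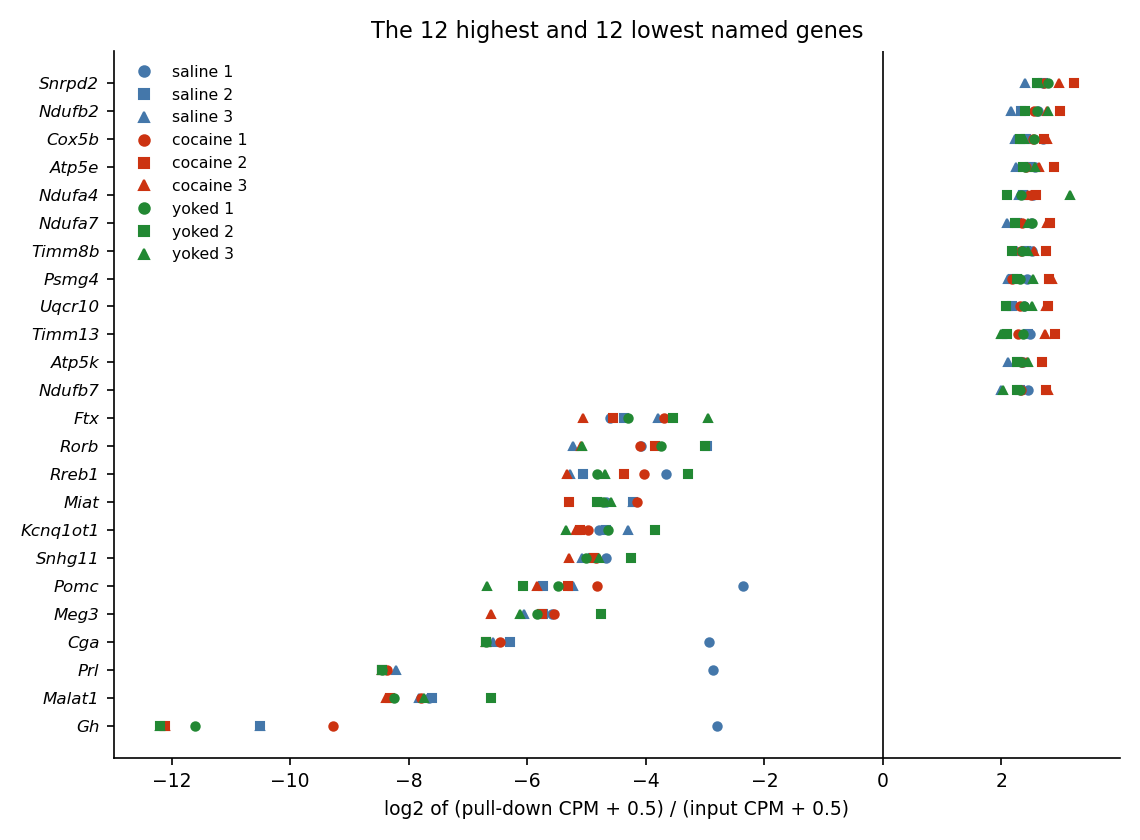
Ratio to the input in each pull-down (log2) for the 12 named genes of highest and the 12 of lowest mean ratio. The highest 12 lie within a narrow band in all 9 pull-downs, while Gh, Prl, Cga and Pomc are far nearer to the input in saline 1 than in the other pull-downs.

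The pituitary genes rested on the input and on 1 pull-down. Prl measured 23.6 CPM in saline 1, 0 to 0.0855 CPM in the other 8 and 174 CPM in the input, and Pomc 17.8 CPM, 0.420 to 2.83 CPM and 93.9 CPM. Without saline 1 the log2 ratio of Gh went from -10.37 to -11.32. Gh, Prl and Cga were at 0 counts in 2, 6 and 5 of the pull-downs, where the ratio depends on the 0.5 CPM added. All 8 pituitary genes were below the input in every pull-down, with a list median of 0.0396. Why the input held them was not tested.

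The ratio also followed the length of genes. The 12381 protein-coding genes were divided into 10 equal classes by genomic span in RefSeq. The median ratio was 1.52 in the shortest class (median span 3.23 kb), 1.04 in the fifth (22.8 kb) and 0.759 in the longest (262 kb). In the shortest class 14.5% of genes were enriched at 2-fold, and in the longest 0.323%. The rank correlation of span and ratio over genes was -0.348, and it was negative in each library, from -0.395 in cocaine 2 to -0.272 in yoked 3, a description over genes that share the same input. Oxidative phosphorylation genes have a median span of 7.11 kb, and their median ratio of 3.16 compares with 1.31 in the class of nearest span, which is a description of the 2 sets of genes. D2 markers, with a median span of 5.74 kb, had a median ratio of 0.220.

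**Figure D5:**
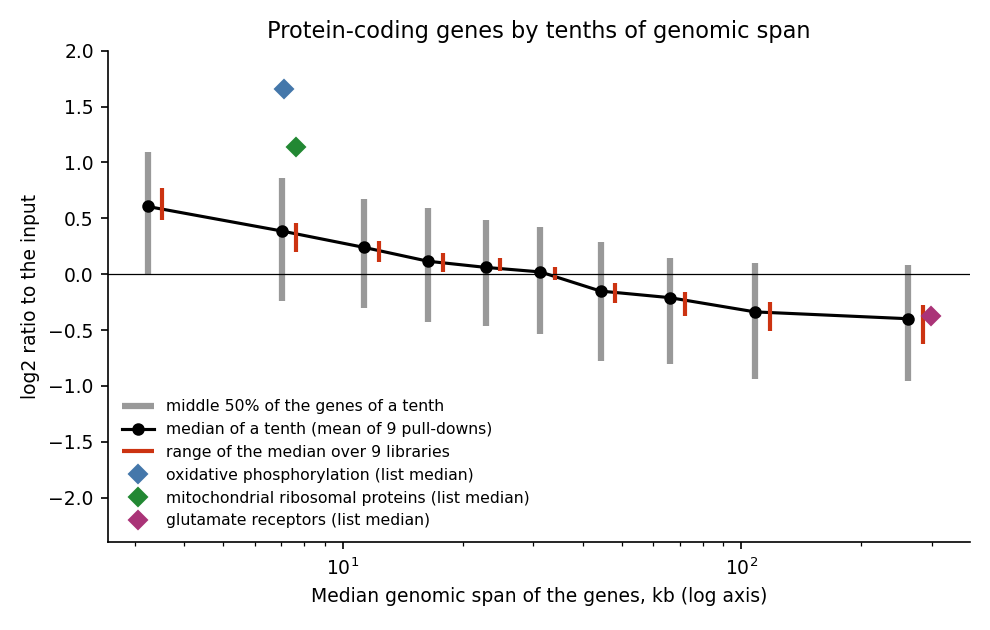
Median log2 ratio to the input of protein-coding genes in 10 classes of genomic span (kb, log axis): black points are medians of the mean over pull-downs, grey bars the middle 50% of genes, red bars the range of the class median over the 9 pull-downs, and diamonds 3 list medians. The medians fall from the shortest to the longest class, and the oxidative phosphorylation and mitochondrial ribosomal lists lie above the classes of like span.

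Receptors and channels of the membrane, many of them long genes, sat near or under the input. Of 22 glutamate receptor genes none was above it in every pull-down and 13 were below, with a median of 0.773 and a median span of 298 kb. Grin1, the obligatory NMDA receptor subunit, was highest (1.18), Grin2b was at 0.938, the AMPA subunits Gria2 and Gria1 at 0.808 and 0.779, and Grin2c lowest at 0.192. Of 12 GABA-A receptor genes (median 0.808), Gabrd, the delta subunit of extrasynaptic receptors, was enriched at 2-fold in all 9 (2.05 to 3.43), Gabra5 was at 1.72 and Gabra3 at 0.312. Of 47 voltage-gated channel genes 3 were above and 22 below, with a median of 0.778, among them Kcnc2 (0.150) and Kcna2 (0.431). Replication-dependent histone genes had a median of 1.57 (12 of 25 above, 4 below). Markers of midbrain dopamine neurons (0.494), meninges (0.280) and blood (0.246) had medians under 1, and the structured RNA Rmrp was at 0.182. The 11 rows of microRNA genes past the level minimum had a median of 0.520, with 6 below the input in each pull-down and 1, Mir22hg (1.33), above. Summed over all 1118 rows of that list, the level was 2564 to 8889 CPM in the pull-downs and 4961 CPM in the input. Cadherins and protocadherins had a median of 0.914, a direction that turned under TMM scaling, and ran from Pcdh15 (0.142) to Cdh15 (3.72). Between them, Cdh13 was at 2.11 and Cdh20 at 0.206.

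Messenger RNAs known from dendrites fell on both sides. Camk2a, the alpha subunit of CaM kinase II, was above the input in all 9 (1.38), Dlg4 (1.33), Ddn (1.18) and Dlgap3 (1.18) in 8, and Map2 (0.681), Ppp1r9b (0.677) and Shank1 (0.649) were below in all 9. By library the list median ran from 0.60 in yoked 3 to 1.31 in yoked 2.

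Immediate early genes, which neurons induce on activity, had a median of 1.45 with 5 of 15 above the input in each pull-down, a share near the 29.7% of all genes, and 2 below. Nr4a1 (2.17), Egr2 (2.0), Junb (1.78), Dusp1 (1.67) and Egr3 (1.32) were the 5, and Jun (0.426) and Npas4 (0.452) the 2. Within the list the pull-downs differed most in Nr4a2, a nuclear receptor also made by cortical neurons, with 5.77, 8.38 and 35.2 CPM in saline, 29.2, 15.3 and 39.3 CPM in cocaine and 29.8, 1.52 and 53.3 CPM in yoked pull-downs against 8.0 CPM in the input. Saline 1 and yoked 2 were below the input for it, and these were also the 2 libraries with the cortical list below 1. The part of cortical RNA in these values was not tested. The list median was 0.898 in yoked 3 and 2.06 in yoked 2.

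Of the genes with the largest SD over pull-downs, Gh, Ttr, Prl, Nr4a2, Slc5a7, Cga, Pomc and Sox10, most turned on 1 library. Ttr measured 147 CPM in saline 3, 10.7 CPM in yoked 2 and 0.269 to 4.07 CPM in the other 7 pull-downs, against 7.77 CPM in the input, and its log2 ratio went from -1.39 to -2.08 without saline 3. Sox10, a transcription factor of the oligodendrocyte lineage, ranged from 0.243 CPM in yoked 3 to 10.6 CPM in yoked 2 against 29.9 CPM.

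Since all ratios share the input, a difference between the 3 groups in ratio is a difference between pull-downs, which have replicates. Each group had its own lane, so a difference between groups cannot be told apart from one between lanes. The edgeR quasi-likelihood F test over the 3 groups called 0 of 14680 genes (0%) with a threshold of 0.05 on the p adjusted by Benjamini-Hochberg. The smallest adjusted p was 0.993, and 263 genes had an unadjusted p under 0.05. The DESeq2 likelihood ratio test called 1 gene, the unnamed clone AK155692 (adjusted p = 0.0255). Of the 477 enriched genes all were tested with edgeR and 32 (6.71%) had an unadjusted p under 0.05. Of the depleted genes 1186 were tested and 34 (2.87%) did, with 0 called in each set. The share over all genes tested was 1.79%, and the differences between these shares were not tested. Drd1 averaged 689.5 ± 75.04 CPM in the saline, 660.5 ± 61.0 CPM in the cocaine and 723 ± 181 CPM in the yoked pull-downs (SD, n = 3 each), with ranges that overlap. In simulated counts of 14452 genes the same test found 99% of 200 genes changed 4-fold, and 5.71% of its calls were false. The counts were drawn independently, without the differences between whole libraries seen here, and the changed genes were not taken from the lowest levels. Smaller changes were not simulated, so the result does not measure how well they would be found. The labels do not say that replicates are separate animals, so these p-values reflect the scatter of these libraries, part or all of which may be technical.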

How the data were processed

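The authors deposited whole-number read counts per gene symbol, 1 table for each library. Reads were aligned with STAR 2.0.0e to mm10 and counted with HTSeq, per the submitters' processing notes. The sources used here do not give the annotation, counting mode or strand setting. Each table held 32531 gene rows, and 6 rows naming no gene were left out. CPM were computed from total gene counts with Python 3.11.15, and 13612 genes had a mean of pull-down mean and input of at least 1 CPM. A count of 3 equals 0.0663 to 0.239 CPM in the pull-downs. The group test used edgeR 4.0.16 (TMM, filterByExpr, quasi-likelihood F test), checked on simulated counts, and DESeq2 1.42.0 as an alternative. Replicates of a group gave a chi-square of 14.4 to 157 per degree of freedom, beyond counting noise, and each was kept as 1 sample. The members, the 37 gene lists and the tests were chosen with earlier results of these data known. The rule for named genes takes the markers, Rpl10a, the 12 highest and 12 lowest ratios among genes past 2-fold in each pull-down at a mean of at least 10 CPM, the 8 largest SDs and the extremes of each list, leaving out sex-linked, predicted, clone and small RNA rows. Gene classes, spans and promoter sequences came from RefSeq GRCm38.p6, where 12883 of the 13612 genes were placed. Other scalings, pseudocounts, level minimums, groups taken alone and leaving out each replicate were tried. Values of some list members are not reported here.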

Additional observations from a re-analysis of the deposited data

Results flagged for a closer look

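In 27 of 135 sets of 9 pull-downs, a single library lay apart from the others, with a gap to its neighbour over Dixon's 95% limit. Chance alone marks about 1 set in 20, and sets drawn from the same libraries are not independent. That rate does not hold for the 8 genes named for their large SD over the pull-downs, of which Gh, Ttr, Prl, Slc5a7, Cga and Pomc were marked.

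Saline 1 was high for the pituitary genes: Gh at 340 CPM, Prl at 23.6 CPM, Cga at 6.27 CPM, Pomc at 17.8 CPM and Lhb at 0.422 CPM, with a pituitary list median of -2.72 on the log2 scale. Saline 2 was high for the cholinergic genes Slc5a7 (28.7 CPM) and Lhx8 (15.8 CPM). Saline 3 was high for Ttr (147 CPM), Kl (9.32 CPM) and Igf2 (3.72 CPM), all made by choroid plexus or meninges, and low for the proteasome list (median log2 ratio 0.87).

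Yoked 2 was high for Penk (323 CPM), the astrocyte gene Slc1a2 (538 CPM), the myelin gene Mobp (69.1 CPM), the precursor gene Cspg4 (3.81 CPM), Nos1 of interneurons (18.3 CPM), Jun (13.5 CPM) and the nuclear RNAs Malat1 (387 CPM) and Meg3 (93.5 CPM), so that RNA low in the other pull-downs was less so there. Yoked 3 was high for Drd1 (930 CPM), Ndufa4 (519 CPM), Sec63 (65.4 CPM), Snhg1 (33.9 CPM) and Mir22hg (17.4 CPM) and for the list of small nucleolar RNA hosts (median log2 ratio 0.71), and low for the dendritic list (-0.73). Neither yoked 1 nor any cocaine library was marked in these 135 sets.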

How the results depend on the processing

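No named gene reversed its direction beyond its SD under any alternative run; the striosome and cadherin medians, near 0, turned under TMM scaling. TMM scaling gave 801 genes enriched at 2-fold and 34 at 4-fold, and log2 list medians of 1.38 for D1 markers and 1.86 for oxidative phosphorylation; it moved 11 of 100 named genes and 11 of 37 lists beyond their SD. With 2 CPM added, 140 genes were depleted at 4-fold and the nuclear RNA median was -3.55; 28 genes and 13 lists moved. A level minimum of 5 CPM left 451 genes enriched at 2-fold, 700 and 182 depleted at 2-fold and 4-fold, and 3075 below the input. No minimum gave 8992 below. From the 3 saline pull-downs alone 648 genes were depleted at 4-fold. From the 3 cocaine pull-downs alone 911 and 54 were enriched at 2-fold and 4-fold and 823 depleted at 4-fold, and from the yoked ones 26 were enriched at 4-fold, fewer libraries having to pass. Leaving out saline 1, saline 3 and yoked 2 was an alternative chosen after seeing the data. It gave 33 enriched at 4-fold and moved none of 37 list medians or 100 named genes beyond their SD. That alternative kept yoked 3. With yoked 3 alone left out, 4622 genes were above the input in each remaining pull-down, in place of 4043. Leaving out 1 replicate at a time gave 478 to 556 genes enriched and 1509 to 1676 depleted at 2-fold, and 17 to 24 and 411 to 529 at 4-fold. In the group test edgeR called 0 to 1 genes when 1 replicate was left out (AK155692 without yoked 3), and DESeq2 called 1, also AK155692. With the replicate number as a block edgeR called 1 gene, Gh, whose level stood apart in saline 1. Same-numbered pull-downs correlated at -0.017 to 0.246; the 6 pairs of numbers 2 and 3 were over 0.1, the 3 pairs of number 1 were not, and in 7 of 9 pairs the own number matched best. Pairing was taken only if every pair passed 0.1, so it was not. In the shallowest pull-down, saline 2, a gene at 0.239 CPM rests on 3 counts.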
